A study of Mus musculus with 8 samples.

Results

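The unfolded protein response genes described here are 33 mouse genes, picked by symbol from a list of endoplasmic reticulum (ER) chaperones, stress sensors, transcription factors, their targets and ER-associated degradation (ERAD) factors. All 33 were found among the 14317 mouse genes of the deposited table, and all 33 were tested among the 14312 genes whose mean value reached 10. They were read by role as 15 chaperone targets of ATF6 and XBP1, 5 sensors and factors, 6 ATF4 targets and 7 ERAD genes. RNA was taken from livers of adult female mice kept on a Western diet (WD) for 8.5 weeks, with 1 library per mouse. The Con-Veh group (n = 4) carried empty silastic pellets, and the Con-DHT group (n = 4) carried 10 mm pellets of dihydrotestosterone (DHT), an androgen that is not converted to estrogen, for the same 8.5 weeks. The genotype of both groups is labelled WT, and both groups share the diet. Nothing in the labels pairs a Con-Veh mouse with a Con-DHT mouse.

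Proteins that enter the secretory pathway fold in the ER, and a liver secreting albumin, lipoproteins and clotting factors carries a heavy folding load. When unfolded proteins build up, the sensors IRE1α, PERK and ATF6 signal to the nucleus. IRE1α splices Xbp1 mRNA and ATF6 is cut to a free transcription factor, and both products raise chaperones and ERAD genes. PERK slows translation while ATF4 is made, and ATF4 raises genes of amino acid supply and redox balance as well as Ddit3, which encodes the death-linked factor CHOP. ATF4 also answers amino acid shortage through other kinases, so that the ATF4 arm can move without the chaperones. Gene-level read counts show neither Xbp1 splicing nor ATF4 translation nor ATF6 cleavage.

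Between 13123962 and 17815944 reads per library fell on mouse genes. Values are normalised read counts, that is reads divided by 1 size factor per library, and a log2 fold change is the mean log2(value + 1) of Con-DHT minus that of Con-Veh, tested with limma and adjusted over all 14312 genes. The Con-Veh libraries differed among themselves in a way the labels do not explain. Over all tested genes, the chi-square per degree of freedom was 22.9 to 29.3 between Con-Veh 1 and 2 and between 3 and 4, against 42.2 to 62.9 between a library of one pair and a library of the other. The share of reads on ERCC spike-in RNA was 3.61%, 2.92%, 2.87% and 1.68% in Con-Veh 1 to 4 and 2.22% to 2.75% in Con-DHT. Hepatocyte markers were abundant in each library, with summed levels of 1065000 to 1833000 normalised reads, and of 10 such genes 1, Trf, was lower in Con-DHT. In bulk liver, fewer cells of a type and less RNA per cell cannot be told apart.

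Of the 33 genes, 1 was lower in Con-DHT (Ddit3) and 1 was higher (Trib3) at an adjusted p of at most 0.05, whereas 7.21% of all tested genes passed, 2.61% as lower and 4.6% as higher. At an unadjusted p of at most 0.05, 8 of 33 passed, against 23.2% of all genes. The groups did not overlap in 4 of 33 genes, against 15.1% of all genes. On recovered reads, edgeR's quasi-likelihood test also called 2 of 33 (7.15% of all genes) and DESeq2's Wald test called 5 of 33 (11.0% of all genes), adding Creld2, Edem1 and Syvn1 as lower. The shares of the 33 genes were near those of all genes. Their log2 fold changes lay to the low side, with 28 of 33 below the median of all genes, which was -0.0081. The size of this shift depended on the libraries used. The median of the 33 genes relative to that of all genes was -0.18 with all libraries, -0.044 without Con-Veh 2 and -0.32 without Con-Veh 4. Below the median of all genes lay 22 of 33 without Con-Veh 2 and 30 of 33 without Con-Veh 4. Scaling by the spike-ins moved the median of all genes by 0.196 on the log2 scale and turned the sign of 12 of the 33 fold changes. The count below the median of all genes stayed at 28 of 33. That is no check, since 1 factor per library shifts all genes nearly alike.

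**Figure D1:**
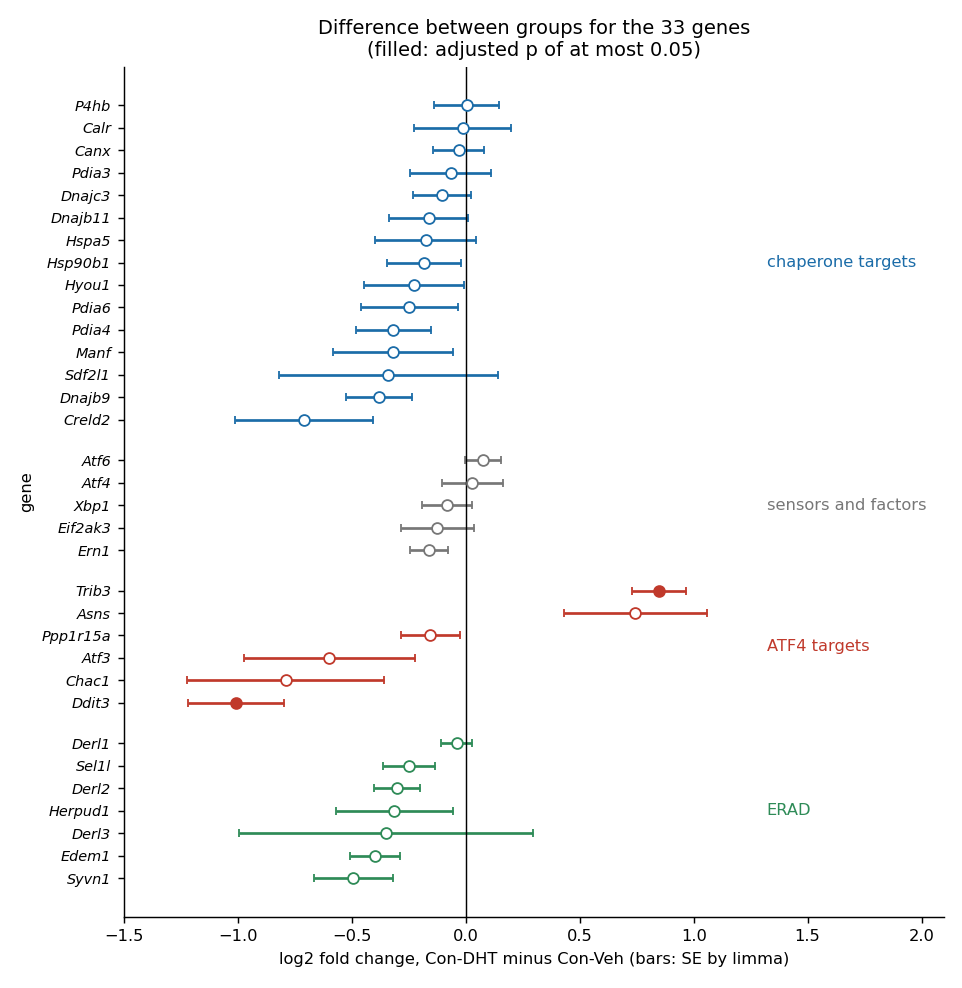
Log2 fold change (Con-DHT minus Con-Veh, horizontal axis, bars give the SE) of each of the 33 genes, ordered within the 4 roles. Filled points mark Ddit3 and Trib3, the 2 genes with an adjusted p of at most 0.05, which lie on opposite sides of 0 within the ATF4 targets.

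None of the 15 chaperone targets passed the test by limma or by edgeR, while DESeq2 called 1 (Creld2), and limma's unadjusted p was at most 0.05 for 2 (Creld2 and Dnajb9). Their log2 fold changes ran from -0.71 (Creld2) to 0.0033 (P4hb), with a median of -0.18. Relative to the median of all genes the list stood at -0.18 with the deposited scaling and at -0.17 with spike-in scaling. Scaling by 1 factor per library can hardly move this difference. With 1 library left out it ran from -0.39 (without Con-Veh 4) to -0.029 (without Con-Veh 2). Hspa5 encodes BiP, the ER Hsp70 that holds the sensors inactive until unfolded protein draws it away. Its normalised read counts were 15201, 15642, 9820.0 and 7235 in Con-Veh 1 to 4 and 9686, 9959.9, 9499 and 11339 in Con-DHT 1 to 4. Every Con-DHT value of Hspa5 lay between the highest and the lowest Con-Veh value, and the mean was 11975 ± 4122 in Con-Veh and 10121 ± 834 in Con-DHT (SD, n = 4 each) (log2 fold change -0.18, SE 0.22, adjusted p = 0.69 by limma). Hsp90b1, the ER Hsp90 also known as GRP94, was measured at 13496, 14218, 9630.3 and 8535 in Con-Veh 1 to 4 and 8787, 10199.9, 9782 and 10827 in Con-DHT 1 to 4. Con-Veh 1 and 2 were again the highest and Con-Veh 4 the lowest for Hsp90b1 (log2 fold change -0.18, SE 0.16, adjusted p = 0.55 by limma), a gene that shares 10.3% of its exon bases with a gene on the opposite strand. The lectin chaperones Calr and Canx, which bind glycoproteins during folding, differed by -0.014 and -0.031 on the log2 scale (SE 0.21 and 0.11).

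Creld2, a disulfide isomerase-like ER protein that is induced by ER stress, had the lowest fold change of the chaperone targets. Its values were 1075, 1462, 580.0 and 471 in Con-Veh 1 to 4 and 534, 525, 432 and 494 in Con-DHT 1 to 4. The 2 high Con-Veh mice stood far above all others, while Con-Veh 3 and 4 sat beside the Con-DHT mice (log2 fold change -0.71, SE 0.30, adjusted p = 0.19 by limma). Dnajb9 (ERdj4), a co-chaperone of BiP that hands clients to ERAD and restrains IRE1α, was counted at 956, 1209, 1093 and 717 in Con-Veh 1 to 4 and 768, 766, 803 and 663 in Con-DHT 1 to 4. The groups overlapped only through Con-Veh 4 (log2 fold change -0.38, SE 0.15, adjusted p = 0.15 by limma), and without that library the adjusted p of Dnajb9 was 0.024. Sdf2l1, a partner of ERdj co-chaperones, showed the widest spread of the list, with 612, 755, 279 and 127 in Con-Veh 1 to 4 and 213, 235, 319 and 399 in Con-DHT 1 to 4, a 5.94-fold range in Con-Veh and a 1.87-fold range in Con-DHT. Manf, a secreted ER stress protein that binds BiP, had values of 1875, 1875, 1148 and 736 in Con-Veh 1 to 4 and 1029, 956, 1019.6 and 1222 in Con-DHT 1 to 4, with both high Con-Veh mice above all 4 Con-DHT mice and Con-Veh 4 below them. The remaining members were the disulfide isomerases Pdia3, Pdia4, Pdia6 and P4hb, the BiP co-chaperones Dnajb11 and Dnajc3, and Hyou1, a nucleotide exchange factor for BiP. Their log2 fold changes ran from -0.32 (Pdia4) to 0.0033 (P4hb).

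With the deposited scaling the chaperone targets spread widely over the Con-Veh mice and little over the Con-DHT mice, a pattern noticed after the values had been seen and given as a description. In 15 of 15 genes the SD of the log2 values was larger in Con-Veh than in Con-DHT, against 48.3% of all genes. The median SD was 0.434 in Con-Veh and 0.115 in Con-DHT, and for all genes it was 0.188 and 0.193. In 14 of 15 (all but Dnajb9), Con-Veh 1 and 2 both exceeded Con-Veh 3 and 4, which held for 18.9% of all genes. Con-Veh 2 was the highest of the 8 libraries in 13 of 15, against 11.8% of all genes. Con-Veh 4 was the lowest in 13 of 15, against 11.4%. All 4 Con-DHT values fell inside the Con-Veh range in 13 of 15 (all but Dnajb9 and Creld2), against 13.8%. Hyou1 had the highest ratio of the SDs, 8.41, with values of 3367, 3976, 2346 and 1695 in Con-Veh 1 to 4 and 2392, 2162, 2341 and 2355 in Con-DHT 1 to 4. The Con-DHT mice differed from each other by 1.11-fold for Hyou1 and the Con-Veh mice by 2.35-fold.

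**Figure D2:**
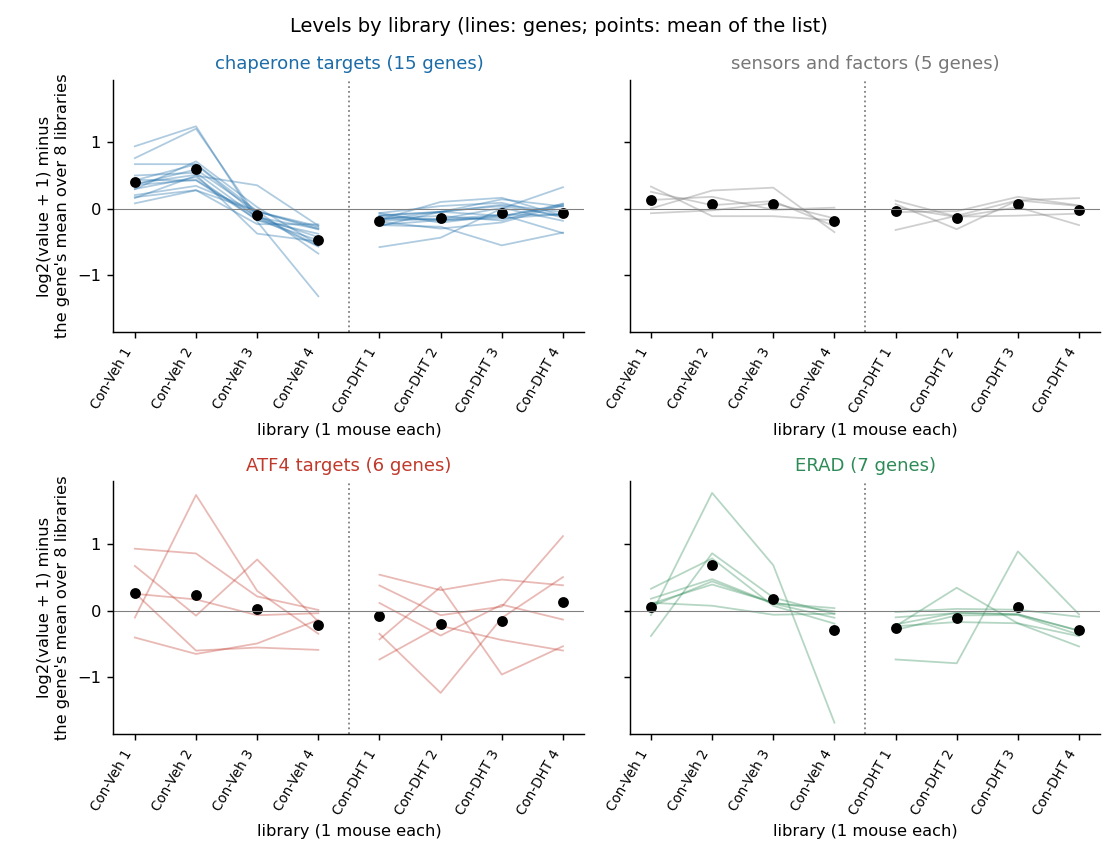
Log2(value + 1) of each gene (lines) minus its mean over the 8 libraries (horizontal axis, 1 mouse each, in no meaningful order within a group), with the mean of each list as black points, for the 4 roles. The chaperone targets spread over the Con-Veh mice, from 0.59 in Con-Veh 2 to -0.47 in Con-Veh 4, and lie between -0.18 and -0.056 in the 4 Con-DHT mice.

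Averaged over the 15 genes, the log2 value relative to each gene's mean was 0.41, 0.59, -0.092 and -0.47 in Con-Veh 1 to 4 and -0.18, -0.13, -0.063 and -0.056 in Con-DHT 1 to 4. The SD of this average was 0.48 in Con-Veh and 0.061 in Con-DHT. With spike-in scaling the Con-Veh averages became -0.17, 0.37, -0.26 and 0.097, so that the order of the Con-Veh mice depended on the scaling, with Con-Veh 1 and 2 both above 3 and 4 in 3 of 15 genes (0.936% of all genes). On that scale Con-Veh 2 was the highest library in 10 of 15 (1.1% of all genes) and Con-Veh 4 the lowest in 1 of 15 (0.671% of all genes). All 4 Con-DHT values then fell inside the Con-Veh range in 12 of 15, but in 61% of all genes too. The SD was still larger in Con-Veh, 0.29 against 0.095, and larger in 15 of 15 genes, but on that scale it was larger in 88.8% of all genes too. The ratio of the 2 SDs had a median of 4.14 over the chaperone targets and 0.973 over all genes with the deposited scaling, and of 2.34 and 2.11 with the spike-ins. Giving each library the same total after setting aside the Mup genes, which encode the major urinary proteins, left the counts at 15 of 15 and 14 of 15.

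Lcn2 and Fgb, from the neutrophil and hepatocyte lists, were chosen after their values were seen because they were high in the same Con-Veh mice. Lcn2, listed as a neutrophil marker and also made by hepatocytes in the acute phase response, had values of 1674, 2708, 144 and 168 in Con-Veh 1 to 4 and 58.9, 114, 343 and 45.7 in Con-DHT 1 to 4. Fgb, the fibrinogen beta chain, was 92237, 77996, 45171 and 49450.3 in Con-Veh 1 to 4 and 43554, 38954, 40358 and 35889.7 in Con-DHT 1 to 4. With the deposited scaling both genes were highest in Con-Veh 1 and 2, as most chaperone targets were, and their part in the spread was not tested. Neither passed by limma (adjusted p = 0.16 for Lcn2 and 0.10 for Fgb), and both passed as lower in Con-DHT by DESeq2 (adjusted p = 0.045 and 0.0066). With spike-in scaling Lcn2 passed and Fgb did not. Most of the hepatocyte list did not follow these mice. Alb, Apoa1, Ttr, Serpina3k, Cps1 and Ass1 were lower in Con-Veh 2 than in Con-Veh 4. Alb had its lowest value of all libraries in Con-Veh 2 and its highest in Con-Veh 4. Apob was higher in Con-Veh 2 than in Con-Veh 4, but Con-Veh 1 was not. Trf and Hnf4a, like Fgb, were higher in Con-Veh 1 and 2 than in Con-Veh 3 and 4 with the deposited scaling. This order of the Con-Veh mice depends on the scaling, and with the spike-ins 0.936% of all genes showed it. Only 2 of the 11 neutrophil markers, Lcn2 and Prtn3, were in the table.

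**Figure D3:**
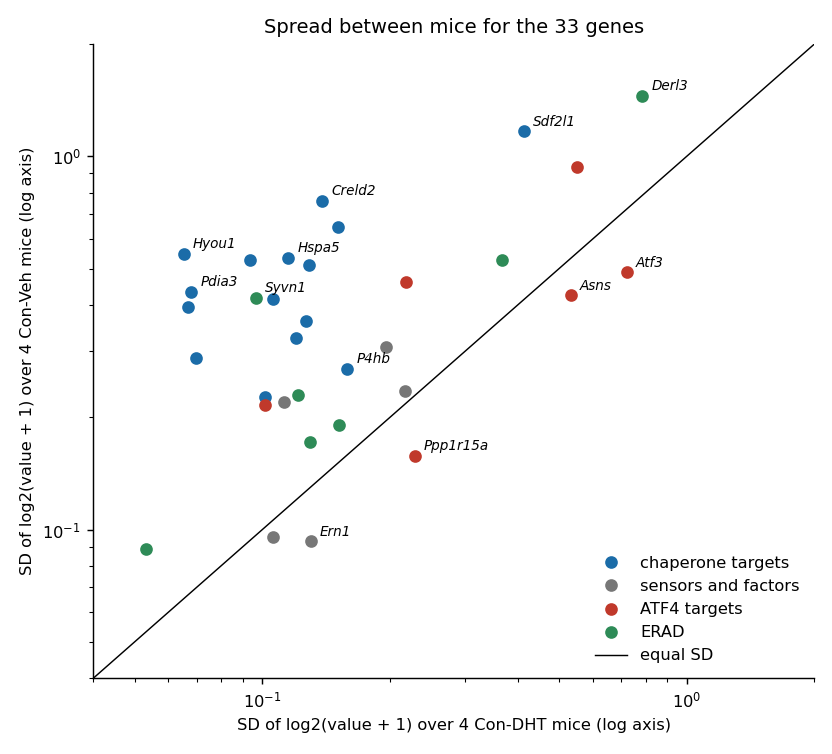
SD of log2(value + 1) over the 4 Con-Veh mice (vertical, log axis) against that over the 4 Con-DHT mice (horizontal, log axis) for the 33 genes, with the line of equal SD. All 15 chaperone targets and all 7 ERAD genes lie above the line with the deposited scaling, and 3 of the 6 ATF4 targets and 3 of the 5 sensors and factors do so.

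The sequences around the start sites of these genes were searched for response elements, and matches are printed because 2 transcription factor arms are being compared. Promoter windows (250 bases before to 50 bases after the start site) come from RefSeq on GRCm38.p6, and 13 of 15 chaperone targets, 4 of 5 sensors and factors, 6 of 6 ATF4 targets and 6 of 7 ERAD genes had one. The ER stress response element (ERSE), bound by ATF6 and XBP1 together with NF-Y, was searched on both strands as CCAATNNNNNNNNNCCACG. It occurred in 7 of 13 chaperone targets and 2 of 6 ERAD genes, in none of the ATF4 targets or sensors and factors, and in 0.119% of 32851 windows. Each match is written in the direction of the element, 5′ to 3′, with the NF-Y end CCAAT and the end CCACG in capitals and the 9 bases between them in lower case.
Hspa5 (chr2:34772025-34772043, + strand): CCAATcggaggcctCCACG
Hsp90b1 (chr10:86705638-86705656, - strand): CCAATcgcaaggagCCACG
Hsp90b1 (chr10:86705533-86705551, + strand): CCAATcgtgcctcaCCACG
Calr (chr8:84847075-84847093, + strand): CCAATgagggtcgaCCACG
Canx (chr11:50325800-50325818, - strand): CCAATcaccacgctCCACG
Pdia6 (chr12:17266491-17266509, + strand): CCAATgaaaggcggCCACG
Dnajc3 (chr14:118937827-118937845, + strand): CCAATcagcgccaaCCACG
Creld2 (chr15:88819520-88819538, - strand): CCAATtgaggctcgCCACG
Syvn1 (chr19:6046532-6046550, + strand): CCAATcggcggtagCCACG
Derl3 (chr10:75893242-75893260, - strand): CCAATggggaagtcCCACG

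Relative to the start site these matches began 65 bases upstream in Hspa5, 212 and 107 in Hsp90b1, 162 in Calr, 145 in Canx, 98 in Pdia6, 105 in Dnajc3, 126 in Creld2, 44 in Syvn1 and 156 in Derl3. The 9 bases between the ends differed from gene to gene, while the ends are fixed by the search. The compact element ATTGGNCCACG (ERSE-II, 0.0365% of windows), which shares the end CCACG with ERSE, was found in Dnajb11 and Herpud1. TGACGTGG, an XBP1 element whose reverse complement also holds CCACG (0.676% of windows), was in no window of the 33 genes. For Hspa5 and Creld2, the best known target and the one with the lowest fold change of the list, the 250 bases before the start site are shown on the gene's strand with the match in capitals. The Hspa5 window is chr2:34771840-34772089 on the + strand and the Creld2 window is chr15:88819396-88819645 on the + strand, where the match lies in the reverse direction.
Hspa5: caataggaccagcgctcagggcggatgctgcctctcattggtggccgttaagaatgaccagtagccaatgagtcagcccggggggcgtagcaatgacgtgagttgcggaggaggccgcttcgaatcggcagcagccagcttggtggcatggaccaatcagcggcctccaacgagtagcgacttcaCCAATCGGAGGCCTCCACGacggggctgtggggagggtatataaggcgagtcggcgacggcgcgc
Creld2: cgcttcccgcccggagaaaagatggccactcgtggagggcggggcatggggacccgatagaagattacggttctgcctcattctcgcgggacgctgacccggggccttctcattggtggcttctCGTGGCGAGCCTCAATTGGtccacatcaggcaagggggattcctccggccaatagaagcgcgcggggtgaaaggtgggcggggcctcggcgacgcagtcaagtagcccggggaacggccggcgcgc

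The Con-Veh spread varied among chaperone targets of both kinds. With an ERSE match, the Con-Veh SD on the log2 scale ran from 0.23 (Canx) to 0.76 (Creld2). In those whose window held no ERSE match, it ran from 0.27 (P4hb) to 1.17 (Sdf2l1). The match is a description of letters and no measure of binding.

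None of the 5 sensors and factors passed by limma, edgeR or DESeq2, and limma's unadjusted p was above 0.05 for each of them, 0 of 5 passing at that level. Atf6, the membrane-bound transcription factor, had values of 766, 789, 851 and 726 in Con-Veh 1 to 4 and 775, 783, 909 and 832 in Con-DHT 1 to 4 (log2 fold change 0.074, SE 0.079, adjusted p = 0.63 by limma). Ern1, which encodes the kinase and RNase IRE1α, was 1045, 1082, 944 and 965 in Con-Veh 1 to 4 and 968, 876, 971 and 804 in Con-DHT 1 to 4 (log2 fold change -0.16, SE 0.083, adjusted p = 0.28 by limma). For neither gene did the groups separate. Xbp1, whose mRNA IRE1α splices, was 2887, 2510.2, 2620.4 and 2014 in Con-Veh 1 to 4 and 2633, 2227, 2249 and 2299 in Con-DHT 1 to 4, a log2 fold change of -0.084 (SE 0.11). Con-Veh 4 had the lowest value for Xbp1, as for the chaperones, while Con-Veh 2 did not have the highest. Eif2ak3, the PERK gene, had its highest value in Con-Veh 3 and its lowest in Con-Veh 4, with 229, 276, 285 and 178 in Con-Veh 1 to 4 and 182, 212, 249 and 235 in Con-DHT 1 to 4. Atf4 itself was 1459, 1070.3, 1070.1 and 1024 in Con-Veh 1 to 4 and 1215, 934, 1265 and 1292 in Con-DHT 1 to 4 (log2 fold change 0.029, SE 0.13, adjusted p = 0.93 by limma), and its single high Con-Veh value was that of Con-Veh 1.

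The 6 ATF4 targets held both genes that passed the test, and these moved in opposite directions. Ddit3 encodes CHOP, a transcription factor induced downstream of PERK. Its normalised read counts were 367, 349, 223 and 193 in Con-Veh 1 to 4 and 115, 164, 141 and 126 in Con-DHT 1 to 4. All 4 Con-DHT mice lay below all 4 Con-Veh mice, and the mean fell from 283 ± 87.9 in the vehicle mice to 136 ± 21.1 in the DHT mice (SD, n = 4 each), which is 0.482 times the Con-Veh level (log2 fold change -1.01, SE 0.21, adjusted p = 0.019 by limma). The call on Ddit3 rested on the libraries used: without Con-Veh 2 or without Con-DHT 1 the adjusted p was 0.055, and with spike-in scaling it was 0.15. With the deposited scaling Con-Veh 1 and 2 were the high mice for Ddit3 as they were for the chaperones. With spike-in scaling, Con-Veh 1 and 2 were both above 3 and 4 in 0 of 6 ATF4 targets. Ddit3 shares 6.13% of its exon bases with another gene entry of the same name on the same strand, which the deposited table does not hold. It shares 3.97% with Mars on the opposite strand, and the counting is not stated to have used strand. Opposite-strand genes also overlap 1.87% to 8.05% of the exon bases of Manf, Eif2ak3, Syvn1 and Derl2.

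Trib3, a pseudokinase induced by ATF4 and CHOP that binds the kinase AKT and damps the stress response, went the other way. It was counted at 158, 133, 149 and 191 in Con-Veh 1 to 4 and 306, 260.3, 291 and 274 in Con-DHT 1 to 4. The lowest Con-DHT mouse stood above the highest Con-Veh mouse, and the mean rose from 158 ± 24.2 in the vehicle mice to 283 ± 19.9 in the DHT mice (SD, n = 4 each), which is 1.79 times the Con-Veh level (log2 fold change 0.85, SE 0.12, adjusted p = 0.0027 by limma). Trib3 stayed below an adjusted p of 0.05 in 8 of 8 fits that left out 1 library, with log2 fold changes from 0.77 to 0.94, and with spike-in scaling the adjusted p was 0.018. For each of the 2 genes the exact two-sided permutation test gave p = 0.029, the smallest that 4 against 4 mice allow.

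**Figure D4:**
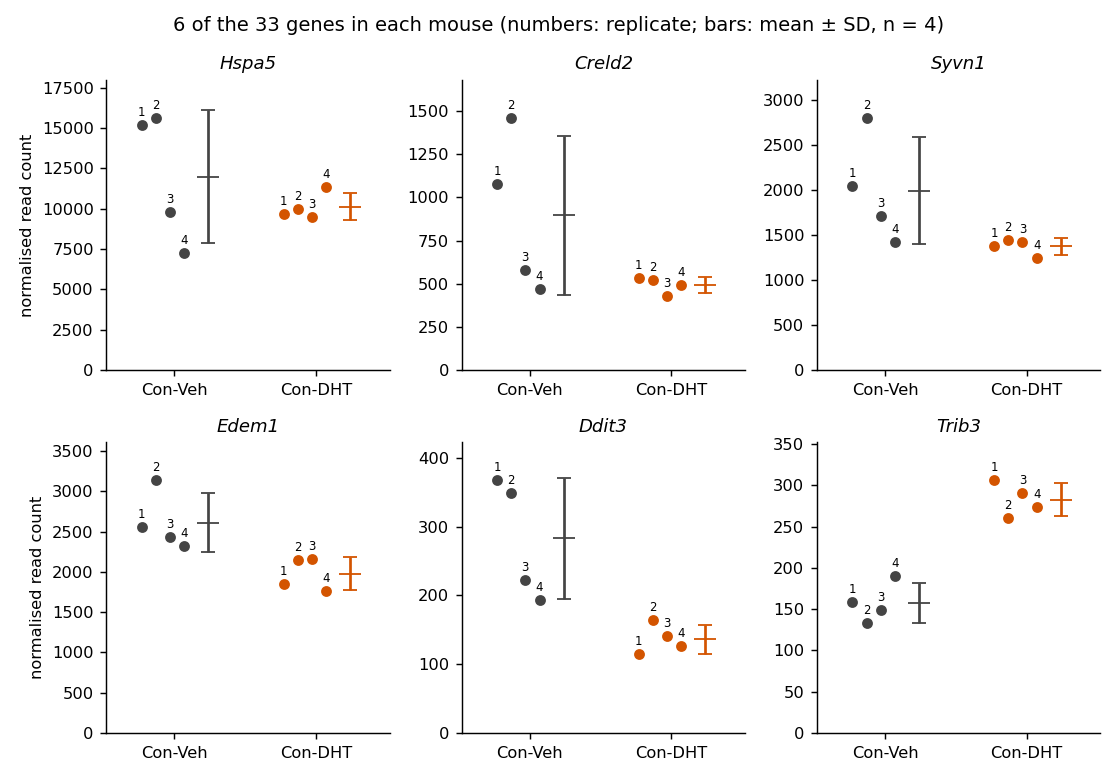
Normalised read count (vertical axis from 0) in each Con-Veh and Con-DHT mouse, numbered by replicate, with mean ± SD (n = 4), for 2 chaperone targets (Hspa5, Creld2), 2 ERAD genes (Syvn1, Edem1) and 2 ATF4 targets (Ddit3, Trib3). Only for Edem1, Ddit3 and Trib3 among these do the groups not overlap, and Trib3 is the one higher in Con-DHT.

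The other 4 ATF4 targets did not pass. Asns, asparagine synthetase, had 30.8, 16.4, 17 and 16.5 in Con-Veh 1 to 4 and 33.4, 24.2, 26.5 and 56.5 in Con-DHT 1 to 4. In Con-DHT it was above 3 of the Con-Veh mice in each library, and Con-Veh 1 fell among the Con-DHT values (log2 fold change 0.74, SE 0.31, adjusted p = 0.19 by limma). Chac1, which degrades glutathione, was 69.3, 252, 91.8 and 58.3 in Con-Veh 1 to 4 and 54.9, 95.8, 37.8 and 51.1 in Con-DHT 1 to 4, and Con-Veh 2 stood far above the other 7 mice (log2 fold change -0.79, SE 0.43, adjusted p = 0.31 by limma). Atf3, a stress-induced repressor, had at most 45.9 normalised reads in a library and a log2 fold change of -0.60 (SE 0.38). Ppp1r15a (GADD34), the phosphatase subunit that restores translation after PERK, had 255, 240.3, 204 and 208 in Con-Veh 1 to 4 and 232, 165, 228 and 195 in Con-DHT 1 to 4 (log2 fold change -0.15, SE 0.13, adjusted p = 0.53 by limma).

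The C/EBP-ATF response element (CARE) through which ATF4 acts was searched on both strands as TGATGNAAN, which occurred in 3.95% of all windows. It was found in 4 of 6 ATF4 targets (Asns, Atf3, Chac1 and Trib3), in none of the 13 chaperone targets, and in 1 ERAD gene, Herpud1. The Ddit3 window held none of the elements searched. The matches are shown in the direction of the element, with its fixed letters in capitals and up to 10 bases on each side, because Trib3 and Asns, which hold one, had the 2 highest fold changes of the 33 genes.
Atf3 (chr1:191183426-191183454, + strand): gcggacttggTGATGcAAgtgcgagaagg
Trib3 (chr2:152344029-152344057, + strand): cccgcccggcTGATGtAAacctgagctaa
Chac1 (chr2:119351038-119351066, - strand): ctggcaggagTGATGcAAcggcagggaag
Asns (chr6:7693214-7693242, - strand): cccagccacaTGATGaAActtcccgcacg
Herpud1 (chr8:94386306-94386334, - strand): gggtgcgggcTGATGcAAcccgccgtggt

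The match lay 23 bases upstream of the start site in Asns, 111 in Atf3, 194 in Chac1 and 113 in Herpud1, and began at base 13 after the start site in Trib3. Chac1 and Atf3 hold a match and had log2 fold changes below 0, so that the letters did not sort the 6 genes by direction.

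The 7 ERAD genes lay below 0 in 7 of 7 cases, with a median of -0.31, against 51.5% of all genes, and in 6 of 7 with spike-in scaling, where the median was -0.11 and the share of all genes 23.0%. By limma and edgeR 0 of 7 passed, by DESeq2 2 (Edem1 and Syvn1, 11.0% of all genes), and by limma's unadjusted p 3 passed at 0.05 (23.2% of all genes). Edem1, a lectin that takes misfolded glycoproteins out of the folding cycle, came nearest. Its values were 2559, 3139, 2439.8 and 2320.3 in Con-Veh 1 to 4 and 1847, 2151, 2157 and 1758 in Con-DHT 1 to 4. The groups did not overlap, and the mean was 2614 ± 363 in Con-Veh and 1978 ± 206 in Con-DHT (SD, n = 4 each) (log2 fold change -0.40, SE 0.11, adjusted p = 0.054 by limma). Syvn1 encodes HRD1, the ubiquitin ligase at the core of ERAD, and was 2046, 2807, 1712 and 1421 in Con-Veh 1 to 4 and 1382, 1445, 1426 and 1246 in Con-DHT 1 to 4. Con-Veh 4 lay among the Con-DHT mice and the other 3 above them (log2 fold change -0.49, SE 0.17, adjusted p = 0.12 by limma). Sel1l, the partner that stabilises HRD1, had 2455, 3189, 2527 and 2181 in Con-Veh 1 to 4 and 2189.8, 2289.6, 2263 and 1907 in Con-DHT 1 to 4 (log2 fold change -0.25, SE 0.11, adjusted p = 0.22 by limma).

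The derlins, membrane proteins of the ERAD channel, behaved unequally. Derl2 did not overlap between the groups, with 1254, 1533, 1269 and 1158 in Con-Veh 1 to 4 and 1009.5, 1142, 1122 and 945 in Con-DHT 1 to 4 (log2 fold change -0.30, SE 0.099, adjusted p = 0.099 by limma). Derl1 differed by -0.039 (SE 0.068), the narrowest error of the 33 genes. Derl3 was low and scattered at 58.3, 211, 98.8 and 18.3 in Con-Veh 1 to 4 and 36.3, 34.8, 114 and 58.7 in Con-DHT 1 to 4 (log2 fold change -0.35, SE 0.65, adjusted p = 0.8 by limma). Herpud1, a ubiquitin-like ERAD factor with both an ERSE-II and a CARE match in its window, was the second most abundant of the 33 genes per length. It was counted at 6353, 15072, 9496 and 8006 in Con-Veh 1 to 4 and 7038, 10514, 7249 and 5695 in Con-DHT 1 to 4, and Con-Veh 1 was among the lowest mice for Herpud1, unlike for the chaperones (log2 fold change -0.31, SE 0.26, adjusted p = 0.51 by limma). Con-Veh 2 was the highest library in 6 of 7 ERAD genes with the deposited scaling, against 11.8% of all genes. With spike-in scaling it was the highest in 3 of 7, against 1.1%.

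Setting the 2 arms side by side, the median log2 fold change was -0.18 for the 15 chaperone targets and -0.38 for the 6 ATF4 targets, a difference of 0.19. Relative to the median of all genes, the ATF4 targets stood at -0.37 with both the deposited and the spike-in scaling, a difference that 1 factor per library can hardly move. The median of 6 genes that ran from -1.01 to 0.85 describes none of them, and without Con-DHT 2 the difference between the arms was -0.024. The chaperone targets ran from -0.71 to 0.0033, a narrower range. In Con-Veh the 2 arms shared the high values of mice 1 and 2 on average, where the ATF4 targets gave 0.27, 0.24, 0.026 and -0.21 in Con-Veh 1 to 4, but with spike-in scaling these averages were -0.30, 0.022, -0.14 and 0.35. In Con-DHT the ATF4 targets gave -0.082, -0.21, -0.15 and 0.12, and their SD of 0.14 was more than that of the chaperone targets, 0.061. No test of this contrast was made, since the members and roles were chosen and not drawn.

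Levels can be compared between genes only per length. Per kilobase of exon (GENCODE M21), the most abundant members in Con-Veh were P4hb at 5147 ± 960.4, Herpud1 at 4171 ± 1622, Calr at 3723 ± 1288, Hsp90b1 at 2845 ± 696 and Hspa5 at 2832 ± 975 normalised reads per kilobase (mean ± SD, n = 4). Hsp90b1 and Hspa5 lay within each other's SD. The lowest were Asns at 7.38 ± 2.59 and Atf3 at 15.9 ± 5.43. The 6 ATF4 targets lay between 7.38 and 165, and the 15 chaperone targets between 390.0 and 5147. Ddit3 and Trib3 stood at 165 ± 51.3 and 74.2 ± 11.4.

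Of the other genes of the pathway, 129 were tested in 5 lists that do not include the 33, and 9 passed (6 higher, 3 lower), which is 6.98% against 7.21% of all genes. Among 31 other targets of ATF4 and CHOP, 5 were higher and 1 lower in Con-DHT, and the list median was 0.023. The share that passed was 19.35% in this list, against 7.21% of all genes. Psat1 and Phgdh encode enzymes of serine synthesis. Psat1 was 27.5, 29.9, 28.9 and 22.6 in Con-Veh 1 to 4 and 88.3, 89, 82.7 and 92.4 in Con-DHT 1 to 4, with the groups far apart (log2 fold change 1.66, SE 0.15, adjusted p = 0.00031 by limma). Phgdh was 28.6, 19.3, 14 and 14.8 in Con-Veh 1 to 4 and 38.3, 38.7, 34.7 and 47.8 in Con-DHT 1 to 4 (log2 fold change 1.06, SE 0.25, adjusted p = 0.032 by limma). Mthfd2, an enzyme of mitochondrial one-carbon metabolism, was 41.8, 37.6, 22 and 29.6 in Con-Veh 1 to 4 and 70.6, 93.9, 58.2 and 93.5 in Con-DHT 1 to 4, again without overlap (log2 fold change 1.26, SE 0.24, adjusted p = 0.012 by limma). Slc7a11, the cystine importer, had 13.2, 47.3, 32.9 and 36.6 in Con-Veh 1 to 4 and 153, 80.3, 67.4 and 88.1 in Con-DHT 1 to 4 (log2 fold change 1.61, SE 0.38, adjusted p = 0.03 by limma). Gars, the glycyl-tRNA synthetase, rose to 1.39 times the Con-Veh mean (log2 fold change 0.48, SE 0.10, adjusted p = 0.019 by limma). Slc3a2, the heavy chain that Slc7a11 pairs with, fell from 927 ± 71.6 in the vehicle mice to 697 ± 76.9 in the DHT mice (SD, n = 4 each) (log2 fold change -0.41, SE 0.095, adjusted p = 0.028 by limma). Psat1 and Mthfd2 passed in every alternative fit run, and the other 4 lost the call in at least 1 of them.

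**Figure D5:**
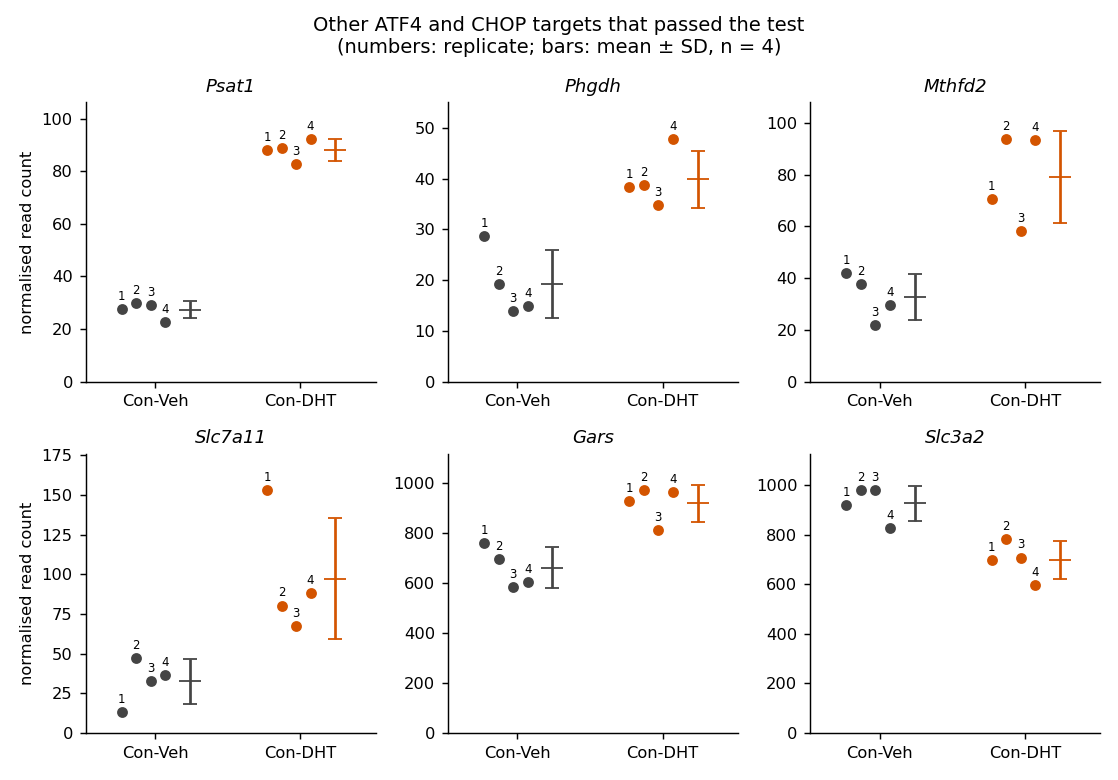
Normalised read count (vertical axis from 0) in each Con-Veh and Con-DHT mouse, numbered by replicate, with mean ± SD (n = 4), for the 6 other ATF4 and CHOP targets that passed the test. The groups do not overlap in any of the 6, and Slc3a2 alone is lower in Con-DHT.

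The direction of Psat1, Phgdh, Mthfd2, Slc7a11 and Gars was that of Trib3, and the direction of Slc3a2 was that of Ddit3. Outside the ATF4 list, Prdx4, an ER peroxiredoxin, was the 1 gene of 21 other folding factors that passed, with 820.1, 831, 813 and 798 in Con-Veh 1 to 4 and 581, 587, 529 and 671 in Con-DHT 1 to 4 (log2 fold change -0.47, SE 0.08, adjusted p = 0.0073 by limma). Its 4 Con-Veh values lay within 1.04-fold of each other, and with spike-in scaling it did not pass (adjusted p = 0.92). None of 27 translocon and glycosylation genes and none of 28 other ERAD genes passed by limma, edgeR or DESeq2 with the deposited values, and by limma's unadjusted p 1 and 6 of them passed at 0.05, where 23.2% of all genes did. On the scale of equal totals with the Mup genes set aside, 2 of the 28 other ERAD genes passed as higher. Of 25 other stress signalling genes, Creb3l1 (OASIS), a membrane-bound relative of ATF6, was higher at 19.8, 19.3, 38.9 and 27 in Con-Veh 1 to 4 and 59.8, 57.1, 45.9 and 80.4 in Con-DHT 1 to 4 (log2 fold change 1.21, SE 0.26, adjusted p = 0.021 by limma). Nfe2l2 (NRF2), the oxidative stress factor, was lower, at 984 ± 68.1 in Con-Veh and 745 ± 68.3 in Con-DHT (SD, n = 4 each) (log2 fold change -0.40, SE 0.086, adjusted p = 0.021 by limma). Creb3l1 did not pass in 5 and Nfe2l2 in 2 of the 8 fits that left out 1 library. Neither passed with a replicate block, and Nfe2l2 did not pass with spike-in scaling, with equal totals without the Mup genes or without the intensity trend either.

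Cell types other than hepatocytes were also followed by their markers. Of 17 plasma cell and B cell markers 8 were in the table, among them Igkc, Igha, Sdc1 and Cd38, which passed as lower in Con-DHT. The summed level of the list was 5985 to 7278 in Con-Veh and 3663 to 4663 in Con-DHT, most of it Sdc1, which hepatocytes also make. The immunoglobulin gene Igha fell from 121 ± 34.1 in the vehicle mice to 30.5 ± 13.9 in the DHT mice (SD, n = 4 each) (log2 fold change -2.02, SE 0.32, adjusted p = 0.0047 by limma) and Igkc from 103 ± 15.4 in the vehicle mice to 51.1 ± 22.9 in the DHT mice (SD, n = 4 each), and Igkc and Cd38 did not pass by edgeR (adjusted p = 0.058 and 0.052). Of the other 4 tested, Jchain, Ighm and Cd79b had log2 fold changes of -0.72, -0.31 and -0.92 and Irf4 of 0.54, and none of these passed. The remaining 9 markers of that list were not analysed here. Of 12 macrophage markers, Clec4f, Cd68, Cd5l, Vsig4 and Lyz2 were lower, with a summed level of 7603 to 9138 in Con-Veh and 5053 to 6837 in Con-DHT. Stab2 and Lyve1 of 8 endothelial markers were lower and Cd4 of 2 T and NK cell markers was higher, and none of 9 stellate cell and 5 cholangiocyte markers passed. Among all tested genes 2.61% passed as lower and 4.6% as higher. With spike-in scaling Igha passed and the other 3 plasma cell markers and the 5 macrophage markers did not. With the deposited scaling these markers were lower in Con-DHT as Ddit3 was, and their part in that result was not tested.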

How the data were processed

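Liver RNA of 4 female mice with empty pellets (Con-Veh) and 4 with DHT pellets (Con-DHT) was sequenced, with 1 library per mouse. Per the study's methods and the submitters' processing notes, reads were trimmed with Trimmomatic, aligned with STAR and counted over exons with featureCounts (Subread), and the labels name GRCm39. The deposited values are a signal, that is the authors' read counts divided by 1 DESeq2 size factor per library, for 14371 features, 54 of them ERCC spike-ins. Whole reads were recovered from these values (tolerance 0.1), and the lowest gene total over the 8 libraries was 81 reads. Rarer genes were not analysed here. Reads on genes numbered 13123962 to 17815944 per library.

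The 14312 genes whose mean value reached 10 were tested on log2(value + 1) with limma 3.58.1 (intensity trend, R 4.3.3), with Benjamini-Hochberg adjustment over all of them and a threshold of 0.05. Fold changes on this scale understate those of low genes. Alternatives were edgeR 4.0.16 (quasi-likelihood) and DESeq2 1.42.0 on recovered reads, other scalings, pseudocounts and filters, array weights, a replicate block and leaving out each library. The tests were checked on simulated data. Single genes were tested by exact permutation of the mice. The mice are separate animals. A detail of the shared genetic background is not reported here. Genes named are the 33 members and genes of the other lists that passed. Lcn2, Fgb, Prtn3, Serpina3k, Alb, Apoa1, Ttr, Cps1, Ass1, Apob, Hnf4a, Jchain, Ighm, Cd79b and Irf4 fall outside that rule and were chosen after their values were seen. The members and lists were chosen with earlier results of these data known. Promoter windows came from RefSeq (GRCm38.p6) and exon lengths from GENCODE M21, and coordinates were not converted.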

Additional observations from a re-analysis of the deposited data

Results flagged for a closer look

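Of 74 groups of 4 libraries checked for 1 library standing far from the other 3, 3 held one, where chance gives about 1 in 20. The measure is the gap of the extreme library to its nearest neighbour as a share of the group's range. It was 0.961 for Asns in Con-Veh 1, the mouse whose value lay among those of Con-DHT. It was 0.894 for Atf4, also in Con-Veh 1. It was 0.857 for Pdia6 in Con-DHT 3, the highest of its group.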

How the results depend on the processing

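Of the 33 genes, 2 passed by limma, 5 by DESeq2, 1 with spike-in scaling, and 1 to 4 when 1 library was left out (1 without Con-Veh 2 or Con-DHT 1, 4 without Con-Veh 4, which added Dnajb9 and Syvn1). Trib3 passed in every alternative run. Of 129 other pathway genes 9 passed, and 4 to 8 when 1 library was left out. The ATF4 targets' median log2 fold change was -0.18 with spike-in scaling and -0.47 to -0.17 with 1 library left out, and the chaperone minus ATF4 difference was -0.024 to 0.24. Con-Veh 1 and 2 exceeded 3 and 4 in 3 of 15 chaperone targets with spike-in scaling, an alternative added after seeing the data. The cause of these changes was not tested.

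Signs that turned belonged to genes that did not pass. With spike-in scaling the log2 fold change was 0.024 for Hspa5, 0.016 for Hsp90b1, 0.19 for Calr, 0.17 for Canx, 0.13 for Pdia3, 0.037 for Dnajb11, 0.096 for Dnajc3, 0.12 for Xbp1, 0.039 for Ern1, 0.073 for Eif2ak3, 0.043 for Ppp1r15a and 0.16 for Derl1. With an equal total without the Mup genes it was 0.085 for Calr, 0.068 for Canx, 0.032 for Pdia3, 0.015 for Xbp1 and 0.059 for Derl1. It was 0.0097 for Calr with array weights, and -0.0046 by edgeR and -0.010 by DESeq2 for P4hb. With 1 library left out the range was -0.18 to 0.16 for Calr, -0.12 to 0.057 for Canx, -0.23 to 0.082 for Pdia3, -0.074 to 0.098 for P4hb, -0.83 to 0.019 for Sdf2l1, -0.024 to 0.15 for Atf4 and -0.97 to 0.18 for Derl3.

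The replicate numbers did not pair the mice, since same-numbered libraries had correlations of -0.186 to -0.00596 and 0 of 4 Con-Veh libraries was closest to its own number. With a replicate block 3 of the 33 genes passed, Edem1 being added (adjusted p = 0.043 by limma), and 6 of the other pathway genes. With 4 mice a group, small differences could not be detected, and limits from counting error alone are smaller than the spread between mice.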
